A study of Mus musculus with 24 samples.

Results

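CC chemokines are small secreted proteins, named for a pair of adjacent cysteines, that draw leukocytes along a gradient by engaging G protein-coupled receptors. In skin they are made by macrophages, mast cells, keratinocytes, fibroblasts and endothelium, and they steer monocytes, eosinophils and lymphocytes into inflamed tissue. Ccl2, Ccl7 and Ccl12 are ligands of Ccr2, the receptor of inflammatory monocytes. Ccl3, Ccl5, Ccl6 and Ccl9 engage Ccr1, Ccl4 attracts macrophages and T cells, Ccl11 (eotaxin) engages Ccr3 on eosinophils, and mouse Ccl8 is an agonist of Ccr8. The 10 genes described here (Ccl2, Ccl3, Ccl4, Ccl5, Ccl6, Ccl7, Ccl8, Ccl9, Ccl11 and Ccl12) were taken by gene symbol from the 45777 genes of the deposited expression table, and all 10 were found.

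Expression was measured by sequencing of polyadenylated RNA in 24 mouse libraries of 4 groups, with 6 libraries in each of model skin, control skin, model dorsal root ganglia (DRG, which house the cell bodies of sensory neurons) and control DRG. The animals were female BALB/c mice, 6 weeks old. Model animals were injected intradermally with LL37, a human cathelicidin peptide that elicits rosacea-like inflammation in mouse skin, at 320 µM in 40 µL, 2 times a day over 2 days. The study design also includes oral gabapentin at 100 mg/kg from day 3 and collection of DRG on day 4. No sample label names gabapentin, so it is not known which animals were given it, and differences tied to the peptide and to the drug cannot be told apart. The injection given to control animals and the day of skin collection are not given either. Nothing in the labels ties each library to an animal of its own. The p-values therefore measure the spread between these samples alone, which may be technical.

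Totals per library were 45238735 to 68396846 counts, and 3 counts summed over a group came to 0.00868 to 0.0094 CPM (counts scaled to library size). The epidermal keratin gene Krt5 averaged 4744 CPM in model skin and 5685 CPM in control skin, and was at 0.0172 CPM in model DRG and 0.0143 CPM in control DRG. The neuronal gene Prph averaged 1182 CPM in model DRG and 1301 CPM in control DRG, against 0.416 CPM in model skin and 0.277 CPM in control skin. Levels are CPM scaled with TMM factors, and "rose" or "fell" is kept for genes that passed at 0.05 after Benjamini-Hochberg (BH) adjustment over all genes tested, in the quasi-likelihood (QL) test of edgeR. In bulk tissue, more cells of a type and more RNA per cell cannot be told apart.

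The comparison of model with control skin asks how chemokine transcripts differ in skin injected with LL37. All 10 CC chemokines rose in model skin, from 2.93-fold for Ccl11 to 16.5-fold for Ccl4, where 19.9% of the 19526 genes tested passed, 14.1% rising and 5.82% falling. The median log2 fold change of the 10 genes was 3.61, against -0.02 over all genes tested. For each of the 10 genes, all 6 model libraries lay above all 6 control libraries, a separation seen in 7.25% of genes tested (1.44% in the other direction). The summed level of the 10 genes was 312 to 1340 CPM in model skin and 71.7 to 197 CPM in control skin.

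**Figure D1:**
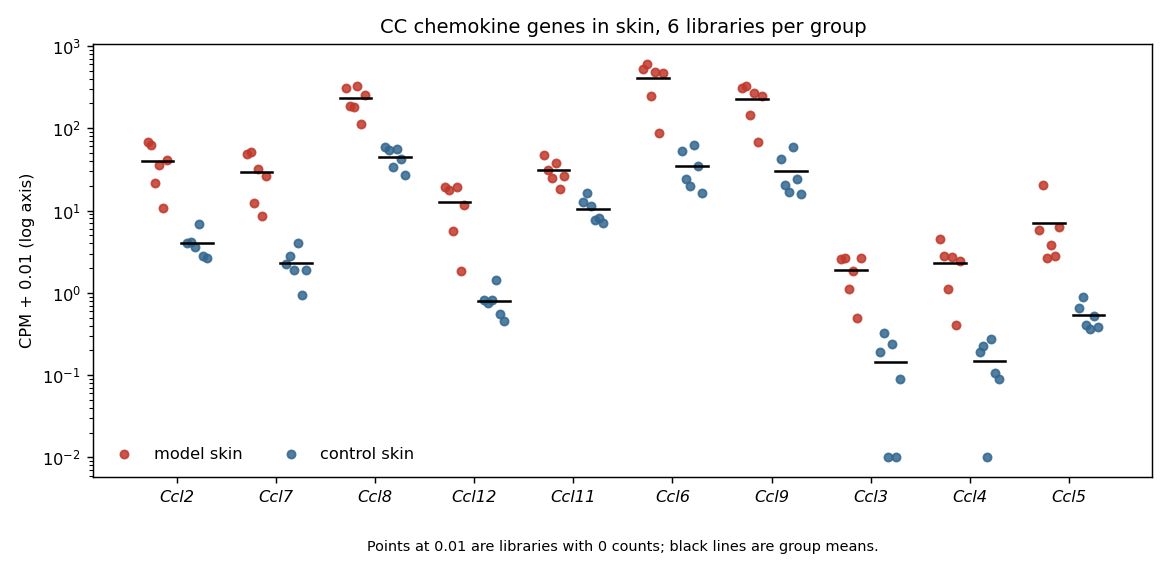
CPM (plus 0.01, log axis) of the 10 CC chemokine genes in skin, with model libraries in red on the left of each pair and control libraries in blue on the right. Each point is 1 library, black lines are group means, and points at 0.01 are libraries with 0 counts. For every gene the lowest model point lies above the highest control point, with a lowest model point of 18.3 CPM against a highest control point of 16.2 CPM for Ccl11.

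Among the ligands of Ccr2, Ccl2, the main attractant of monocytes, had a lowest, median and highest level of 10.7, 38.4 and 68.0 CPM in model skin, against 2.65, 3.79 and 6.76 CPM in control skin. The lowest model library was thus above the highest control library, and Ccl2 rose by 3.32 ± 0.43 on the log2 scale (SE, edgeR QL, BH-adjusted p = 0.000582). Ccl7, a second Ccr2 ligand that also binds other CC receptors, had 8.51, 29.1 and 51.0 CPM in model skin, against 0.92, 2.06 and 3.99 CPM in control skin. Ccl12, a monocyte attractant known in mice, had 1.83, 14.7 and 19.3 CPM in model skin, against 0.439, 0.771 and 1.4 CPM in control skin. The lowest Ccl12 value of model skin, in replicate 5, came close to the highest control value, while 4 of the other model libraries had 11.7 to 19.3 CPM. Ccl12 rose by 3.99 ± 0.54 and Ccl7 by 3.70 ± 0.49 on the log2 scale (SE, edgeR QL, BH-adjusted p = 0.0006 and 0.000583).

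Ccl8, whose mouse product acts on Ccr8, was the most abundant of the 10 genes per transcript length in skin, at 946 ± 336 TPM (scaled to transcript length and library size) in model skin and 184 ± 53.7 TPM in control skin (SD, n = 6 each). Its lowest, median and highest levels were 113, 222 and 327 CPM in model skin, against 27.0, 48.1 and 59.3 CPM in control skin. Ccl8 rose 5.08-fold (95% interval 3.34 to 7.73; edgeR QL, BH-adjusted p = 0.000548). Ccl11, the eosinophil attractant eotaxin, had 18.3, 28.7 and 46.8 CPM in model skin, against 7.04, 9.76 and 16.2 CPM in control skin. It had the smallest rise of the 10 genes, 2.93-fold (95% interval 1.98 to 4.34; edgeR QL, BH-adjusted p = 0.0017).

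Ccl6 and Ccl9, Ccr1 ligands found in rodents, came next per transcript length in model skin. Ccl6 averaged 592 ± 290 TPM in model skin and 50.5 ± 26.6 TPM in control skin, and Ccl9 160 ± 70.5 TPM in model skin and 20.5 ± 11.6 TPM in control skin (SD, n = 6 each). Ccl6 had 87.2, 475 and 610 CPM as lowest, median and highest values in model skin, against 16.3, 29.5 and 62.1 CPM in control skin. Ccl9 had 68.4, 260 and 329 CPM in model skin, against 15.8, 22.4 and 58.7 CPM in control skin. In both genes model replicate 5 was lowest and model replicate 3 second lowest, and control replicate 4 was the highest control. Ccl6 rose 11.5-fold (95% interval 5.50 to 24.1) and Ccl9 7.68-fold (95% interval 3.95 to 14.9; edgeR QL, BH-adjusted p = 0.000657 and 0.000952). The TPM ratio of Ccl6 to Ccl9 was 2.67 to 3.95 over the model skin libraries and 2.17 to 3.02 over the control skin libraries, ranges that overlap.

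Ccl3, Ccl4 and Ccl5 were the scarcest of the 10 genes per transcript length in model skin, at 4.97 ± 2.39 TPM for Ccl3, 6.76 ± 3.87 TPM for Ccl4 and 28.0 ± 28.2 TPM for Ccl5 (SD, n = 6). Ccl3, which attracts macrophages and T cells, had 0.478, 2.2 and 2.64 CPM in model skin, against 0, 0.129 and 0.319 CPM in control skin, with 2 control libraries at 0 counts. Ccl4, its close relative, had 0.396, 2.54 and 4.48 CPM in model skin, against 0, 0.137 and 0.266 CPM in control skin. Both rose, Ccl3 by 3.82 ± 0.74 and Ccl4 by 4.05 ± 0.68 on the log2 scale (SE, edgeR QL, BH-adjusted p = 0.0042 and 0.00168), with the largest standard errors of the 10 genes. On the log2(TPM + 1) scale, which understates changes of low genes, limma gave smaller values, 2.07 for Ccl3 and 2.30 for Ccl4 (BH-adjusted p = 0.000629 and 0.00107). Ccl5 (RANTES), a T cell product and attractant, had 2.63, 4.85 and 20.6 CPM in model skin, against 0.355, 0.453 and 0.871 CPM in control skin. The highest Ccl5 value came from model replicate 2, where the other model libraries had 2.63 to 6.28 CPM. That library also stood apart in 10 T cell markers, which summed to 271 CPM there. Their sums were 30.4 to 55.1 CPM in the other model skin libraries and 15.3 to 36.9 CPM in control skin. Among the other model skin libraries, replicate 5 had the highest T cell sum (55.1 CPM) with Ccl5 at 2.75 CPM. Replicate 6 had the highest Ccl5 of these (6.28 CPM) with a T cell sum of 32.6 CPM. A link between the 2 was not tested. Ccl5 rose by 3.73 ± 0.55 on the log2 scale with all libraries (SE, edgeR QL, BH-adjusted p = 0.000831) and by 3.05 without model replicate 2 (edgeR QL, BH-adjusted p = 0.000916).

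The makeup of the CC chemokine transcripts also differed between groups, as shares of the 10 genes' summed TPM, which were 2028 ± 775 TPM in model skin and 297 ± 93.9 TPM in control skin (SD, n = 6 each). Ccl8 held 48.9 ± 10.1% of the sum in model skin and 62.3 ± 3.99% in control skin. Ccl6 held 27.6 ± 6.48% in model skin and 16.3 ± 4.44% in control skin. Ccl11 held 3.22 ± 0.89% in model skin and 7.23 ± 2.46% in control skin. For each of these 3 genes the ranges of the model and control libraries overlapped. Ccl6, Ccl8 and Ccl9 together held 84.2 ± 3.51% in model skin and 85.3 ± 3.26% in control skin. In DRG the order was another: Ccl11 held 60.1 ± 4.17% in model DRG and 66.7 ± 3.77% in control DRG, and Ccl8 1.51 ± 0.80% in model DRG and 1.90 ± 0.66% in control DRG. These shares are descriptions of the libraries and were not tested.

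**Figure D2:**
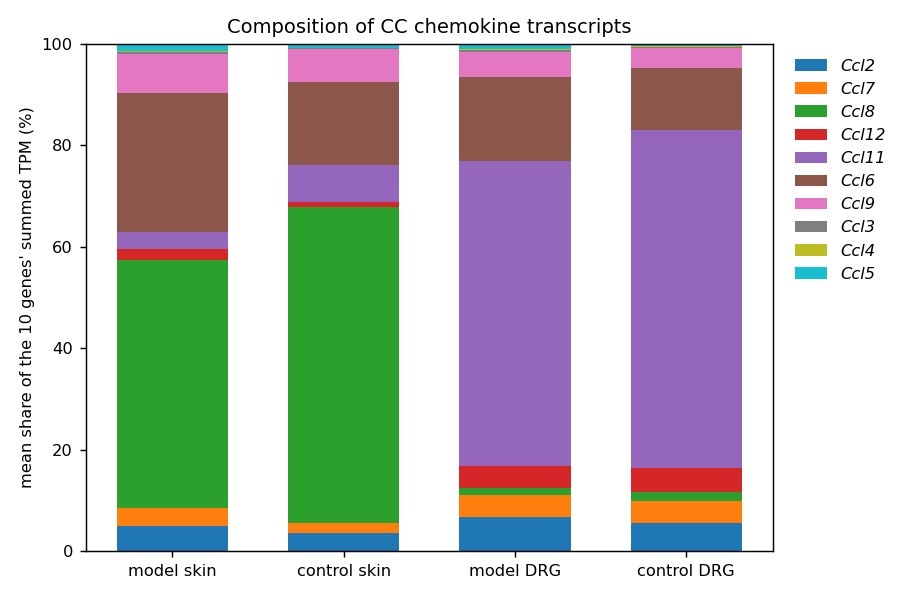
Mean share (%) of each CC chemokine gene in the summed TPM of the 10 genes, for model skin, control skin, model DRG and control DRG (6 libraries each). Ccl8 and Ccl6 make up most of both skin bars, and Ccl11 makes up 60.1% of the model DRG bar and 66.7% of the control DRG bar.

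The same libraries were low or high for many of the genes. Model skin replicate 5 was the lowest of the 6 model libraries for 9 of the 10 genes, the exception being Ccl5, which was lowest in replicate 3. Model skin replicates 1 and 2 held the highest value for 4 and 5 genes, and control skin replicate 4 was the highest control for 6 genes. The 12 monocyte and macrophage markers showed the same library at the bottom: their summed level was 762 CPM in model skin replicate 5 and 1411 to 2267 CPM in the other model skin libraries, against 213 to 561 CPM in control skin. Sums of NK cell (12.1 CPM), neutrophil (59.7 CPM), endothelial (173 CPM) and fibroblast (9299 CPM) markers were also lowest in model skin replicate 5 among the model skin libraries. Those of keratinocyte (18687 CPM), dendritic and Langerhans cell (527 CPM) and sensory neuron (5.21 CPM) markers were highest there. The cause was not tested. Without model skin replicate 5 all 10 chemokines still passed, with log2 fold changes of 1.71 for Ccl11 to 4.31 for Ccl4.

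**Figure D3:**
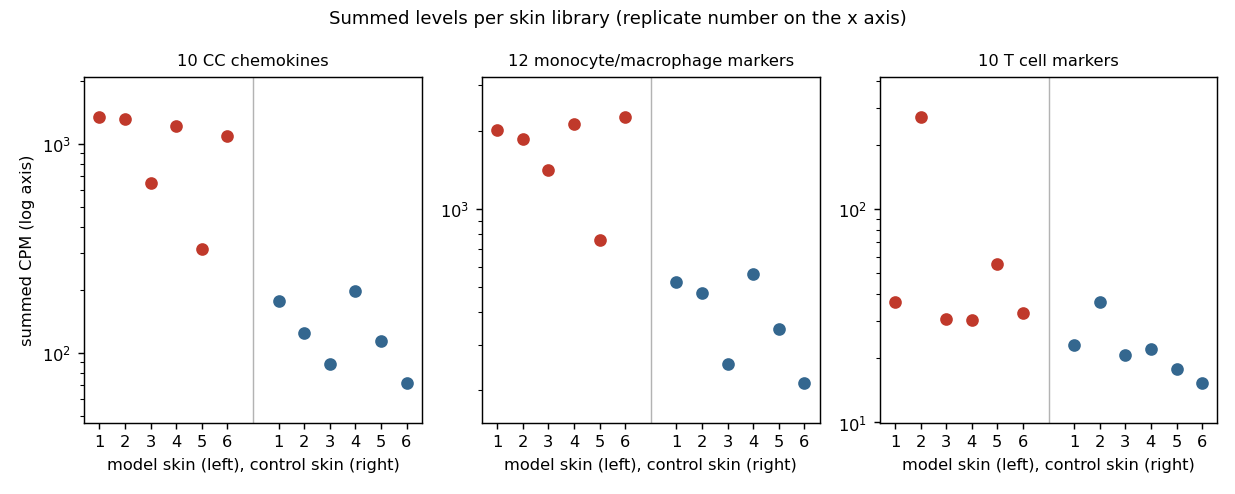
Summed CPM (log axis) of the 10 CC chemokines, of 12 monocyte and macrophage markers and of 10 T cell markers in each skin library, with model libraries (red, replicates 1 to 6) on the left and control libraries (blue, replicates 1 to 6) on the right of each panel. Model replicate 5 is the lowest model library in the chemokine and monocyte panels (312 and 762 CPM), and model replicate 2 the highest in the T cell panel (271 CPM).

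Markers of cells that make or follow these chemokines were counted in the same skin comparison, where 14.1% of all genes tested rose and 5.82% fell. All 12 monocyte and macrophage markers rose, among them Adgre1 (F4/80) 6.28-fold and the growth factor receptor gene Csf1r 2.80-fold (edgeR QL, BH-adjusted p = 0.000583 and 0.00163). All 7 NK cell markers rose, Ncr1 8.68-fold among them (edgeR QL, BH-adjusted p = 0.000858), with sums of 12.1 to 34.2 CPM in model skin and 2.65 to 7.67 CPM in control skin. Of 9 T cell markers tested 6 rose in edgeR QL and 4 were called by DESeq2, and Cd3e, at 6.50 ± 9.14 CPM in model skin and 1.63 ± 0.917 CPM in control skin, did not pass (SD, n = 6 each, edgeR QL, BH-adjusted p = 0.0642). The 3 eosinophil markers tested rose, with Siglecf 10.2-fold higher (edgeR QL, BH-adjusted p = 0.000553), while the granule gene Prg2, at 0.291 ± 0.251 CPM in model skin and 0.0355 ± 0.0463 CPM in control skin, was too low to be tested. Of the neutrophil, mast cell, dendritic cell, endothelial and fibroblast markers, 3 of 6, 6 of 7, 4 of 7, 5 of 6 and 3 of 6 rose, and none fell. Summed levels were higher in every model than in every control skin library for mast cell and endothelial markers only. Neutrophil sums were 59.7 to 257 CPM in model skin and 18.5 to 282 CPM in control skin. The median sum of dendritic and Langerhans cell markers was 378 CPM in model skin and 446 CPM in control skin. Fibroblast sums were 9299 to 16211 CPM and 4567 to 9515 CPM. None of 6 keratinocyte, 6 skeletal muscle, 6 glial and 3 sensory neuron markers tested passed in skin in edgeR QL, where 1 muscle and 3 glial genes had an unadjusted p under 0.05 and DESeq2 called 2 glial genes. The part of these cell types in the chemokine levels was not tested.

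The comparison of model with control DRG asks whether the ganglia show the same change. None of the CC chemokines passed in DRG, where 7 of the 10 had enough counts to be tested and 0.0974% of the 19509 genes tested passed, all of them higher in model DRG. Ccl3, Ccl4 and Ccl5 failed the filter on low counts. Over all genes 19 were called by edgeR QL, 1822 had an unadjusted p under 0.05, and DESeq2 called 136. Of the 7 chemokines 1 had an unadjusted p under 0.05, and DESeq2 and limma on log2 TPM called 0. The median log2 fold change of the 7 genes was -0.14, against -0.01 over all genes tested. The summed level of the 10 genes was 21.0 to 29.1 CPM in model DRG and 21.6 to 32.0 CPM in control DRG.

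Ccl11 was the most abundant of the 10 genes per transcript length in DRG, at 32.3 ± 4.87 TPM in model DRG and 38.9 ± 7.39 TPM in control DRG (SD, n = 6 each). Ccl11 had lowest, median and highest values of 11.3, 13.4 and 16 CPM in model DRG, against 13.5, 15.9 and 21.4 CPM in control DRG. The groups overlapped, with 3 model libraries below all controls. In 0.149% of genes all 6 model libraries lay below all controls, and in 0.379% above them. Ccl11 had the smallest unadjusted p of the 7 genes (0.0225) and a log2 fold change of -0.32 (95% interval -0.58 to -0.05), and did not pass (edgeR QL, BH-adjusted p = 0.494). Ccl6 had 3.75, 4.83 and 6.50 CPM in model DRG, against 2.63, 4.17 and 5.35 CPM in control DRG, a log2 fold change of 0.25 with a 95% interval of -0.12 to 0.62. Its highest value came from model DRG replicate 5, where neutrophil markers summed to 345 CPM and eosinophil markers to 121 CPM, against 22.2 to 75.6 and 3.92 to 21.5 CPM in the other model DRG libraries. Monocyte and macrophage markers also had their highest sum of model DRG there (239 CPM). Model DRG replicate 4 was next for Ccl6, at 5.79 CPM, with a neutrophil sum of 48.4 CPM. A link between Ccl6 and these markers was not tested. Ccl9 had 2.43, 3.06 and 4.42 CPM in model DRG, against 1.47, 3.13 and 3.57 CPM in control DRG.

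The Ccr2 ligands lay near 1 CPM or below in DRG. Ccl2 had 0.928, 1.15 and 1.33 CPM in model DRG, against 0.846, 1 and 1.4 CPM in control DRG, and its 95% interval of -0.22 to 0.44 on the log2 scale leaves out a change of the size seen in skin. Ccl7 had 0.275, 0.709 and 1.13 CPM in model DRG, against 0.473, 0.837 and 0.993 CPM in control DRG. Ccl12 had 0.337, 0.490 and 0.743 CPM in model DRG, against 0.405, 0.518 and 0.847 CPM in control DRG. For all 3 genes the groups overlapped, and log2 fold changes were 0.11 for Ccl2, -0.14 for Ccl7 and -0.21 for Ccl12.

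The remaining members had the lowest mean levels in DRG, at 0.361 CPM or less in every library. Ccl8 had 0 to 0.270 CPM in model DRG, with no counts in replicate 6, against 0.147 to 0.361 CPM in control DRG, and its 95% interval was wide, -1.33 to 0.59 on the log2 scale. Ccl5 had 0 to 0.216 CPM in model DRG and 0 to 0.188 CPM in control DRG. Ccl3 had 0 to 0.169 CPM in model DRG and 0 to 0.117 CPM in control DRG. Ccl4 had counts in replicate 4 of model DRG (0.0773 CPM) and in replicates 2 and 6 of control DRG (0.057 and 0.0471 CPM). Tested with no filter, the 3 genes had log2 fold changes of 0.59, -0.43 and 0.94 for Ccl3, Ccl4 and Ccl5 (edgeR QL, BH-adjusted p = 0.898, 0.951 and 0.723). The 95% intervals were wide, -1.69 to 2.88 for Ccl3, -3.25 to 2.38 for Ccl4 and -0.93 to 2.81 for Ccl5. Each ends below the log2 fold change of the same gene in skin, an estimate that has its own error. The direct test of the difference between tissues, given below, did not pass for these 3 genes.

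**Figure D4:**
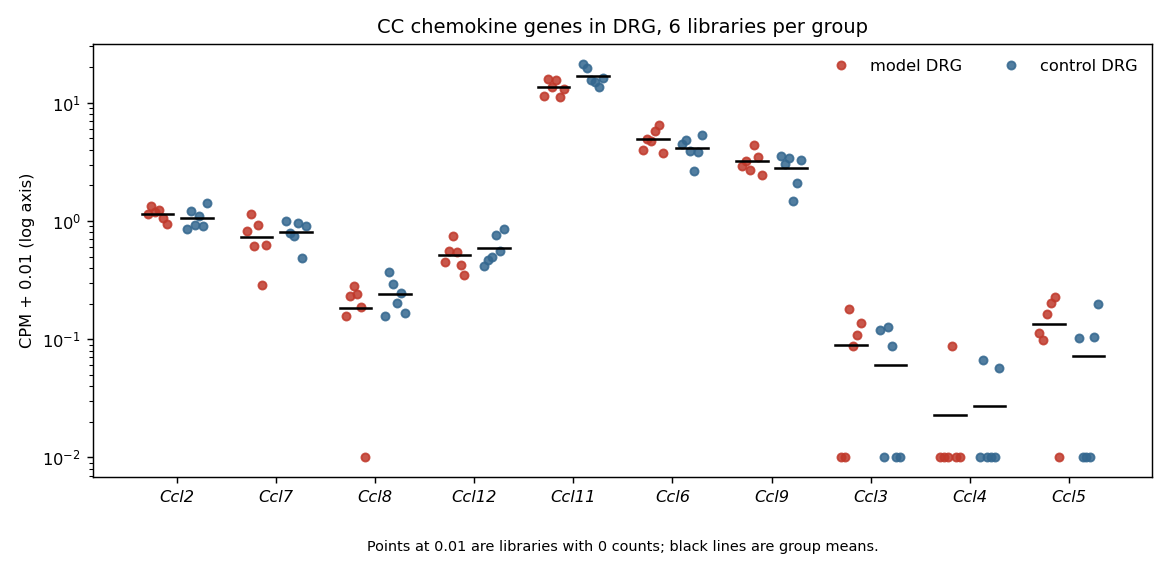
CPM (plus 0.01, log axis) of the 10 CC chemokine genes in DRG, with model libraries in red on the left of each pair and control libraries in blue on the right. Each point is 1 library, black lines are group means, and points at 0.01 are libraries with 0 counts. The groups overlap for every gene, and the Ccl11 points lie at 11.3 to 16 CPM in model DRG and 13.5 to 21.4 CPM in control DRG.

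Monocyte and macrophage markers summed to 114 to 239 CPM in model DRG and 120 to 233 CPM in control DRG, and 0 of 12 passed in edgeR QL (0 at an unadjusted p under 0.05, 0 in DESeq2). None of the tested markers of T cells (2), NK cells (2), eosinophils (6), neutrophils (7) or mast cells (6) passed in DRG in edgeR QL or DESeq2, with 2 neutrophil and 1 mast cell gene at an unadjusted p under 0.05. Nor did those of endothelium (6), fibroblasts (6), keratinocytes (3), sensory neurons (6), glia (6) or skeletal muscle (6), with 1 endothelial, 1 fibroblast and 1 glial gene at an unadjusted p under 0.05. Over all 19509 genes tested in DRG only 0.0974% passed in edgeR QL, so 0 passing in a short list does not show an absence of change. Median log2 fold changes were 1.26 for eosinophil and 1.18 for neutrophil markers, against -0.01 over all genes tested. They were 0.01 for T cell, 0.41 for NK cell and 0.08 for mast cell markers. Cd3e was at 0.0308 CPM in model DRG and 0.00613 CPM in control DRG. Of the dendritic and Langerhans cell list 1 of 6 genes rose, the Langerhans cell gene Cd207, at 0.557 ± 0.151 CPM in model DRG and 0.0853 ± 0.0447 CPM in control DRG (SD, n = 6 each, edgeR QL, BH-adjusted p = 0.0152).

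The difference between tissues was tested directly, as the model effect in skin minus the model effect in DRG in 1 fit of 24 libraries. All 7 CC chemokines that could be tested in both tissues had a larger response in skin, where 17.1% of the 17251 genes tested passed, 10.6% in that direction and 6.43% in the other. The difference was 4.15 ± 0.59 on the log2 scale for Ccl12, 3.79 ± 0.57 for Ccl7, 3.22 ± 0.51 for Ccl6 and 3.16 ± 0.45 for Ccl2 (SE, edgeR QL, BH-adjusted p = 9.25e-05, 0.000144, 0.000234 and 9.5e-05). It was 2.70 ± 0.50 for Ccl9, 2.66 ± 0.54 for Ccl8 and 1.83 ± 0.29 for Ccl11 (SE, edgeR QL, BH-adjusted p = 0.000837, 0.00204 and 0.000205). With no filter on low counts Ccl3, Ccl4 and Ccl5 had differences of 3.22, 4.5 and 2.77 and did not pass (edgeR QL, BH-adjusted p = 0.123, 0.0955 and 0.0859).

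**Figure D5:**
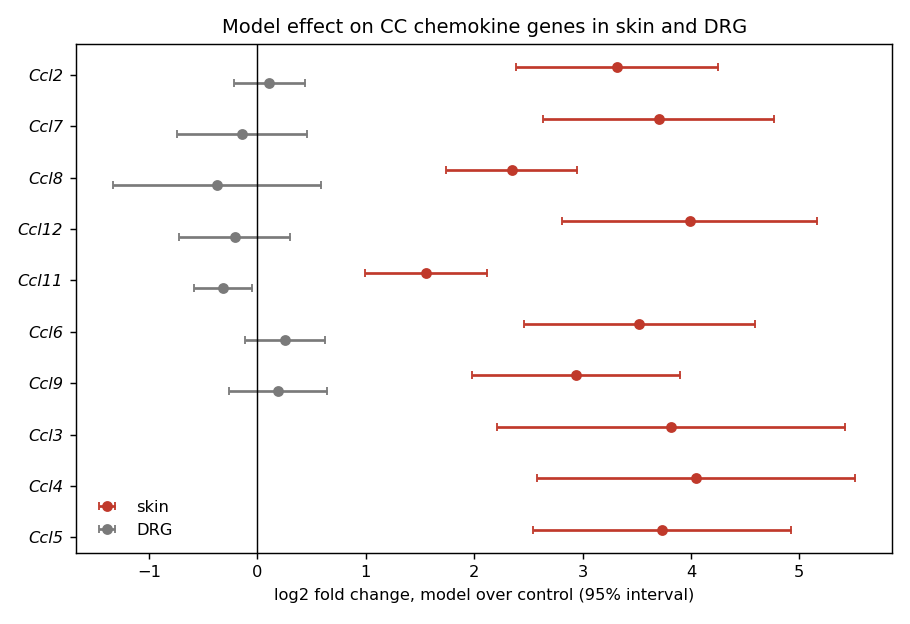
Log2 fold change, model over control, of each CC chemokine gene in skin (red, upper marker) and DRG (grey, lower marker), with 95% intervals from edgeR. All 10 skin intervals lie above 0, the DRG intervals of 6 genes include 0 and that of Ccl11 runs from -0.58 to -0.05, and Ccl3, Ccl4 and Ccl5 have no DRG value because they failed the filter on low counts.

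All 10 genes lie on mouse chromosome 11, in 2 groups that are 1.41 Mb apart (RefSeq, GRCm38.p6). The first spans 81.2 kb and holds Ccl2 (chr11:82035577-82037452), Ccl7 (chr11:82045712-82047525), Ccl11 (chr11:82057832-82062955), Ccl12 (chr11:82101845-82103399) and Ccl8 (chr11:82115185-82116799), all on the plus strand. The second spans 138.9 kb and holds Ccl5 (chr11:83525778-83530518), Ccl9 (chr11:83572917-83578636), Ccl6 (chr11:83587886-83593087) and Ccl3 (chr11:83647843-83649378) on the minus strand, and Ccl4 (chr11:83648624-83664683) on the plus strand. The RefSeq spans of Ccl3 and Ccl4 overlap by 755 bp on opposite strands, and no source states the strand setting of the authors' counting, so reads in that stretch may not be separable between them. In the GENCODE annotation no exon of a member shares a base with an exon of another gene, Ccl3 and Ccl4 included. None of the 45 pairs of members shared a stretch of 50 bases in their GENCODE transcripts.

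Genes lying between and beside the members did not all follow them in skin, where 14.1% of all genes tested rose. Within 100 kb of the first group there were 5 other genes, of which 2 were tested and 0 passed in edgeR QL, with Gm31522 at an adjusted p = 0.433. The other was Ccl1, a Ccr8 ligand, at 1.13 ± 0.477 CPM in model skin and 0.611 ± 0.229 CPM in control skin (SD, n = 6 each, edgeR QL, BH-adjusted p = 0.107). Within 100 kb of the second group there were 19 other genes, of which 8 were tested and 2 rose. These were Wfdc17, at 48.1 ± 19.7 CPM in model skin and 8.79 ± 4.59 CPM in control skin, and E230016K23Rik, whose span contains Ccl6, at 2.21 ± 1.09 CPM in model skin and 0.311 ± 0.142 CPM in control skin (SD, n = 6 each, edgeR QL, BH-adjusted p = 0.00135 and 0.00211). Heatr6 and Taf15, in the same window, had log2 fold changes of 0.00 and -0.01 in skin.

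Promoter sequences from RefSeq (GRCm38.p6), 250 bases before to 50 after the annotated start, were matched for 5 of the 10 genes: Ccl3, Ccl6, Ccl8, Ccl9 and Ccl12. Shown here are the neighbouring pairs Ccl12 and Ccl8, at chr11:82101595-82101894 and chr11:82114935-82115234 on the plus strand, and Ccl9 and Ccl6, at chr11:83578587-83578886 and chr11:83593038-83593337 on the minus strand, because these 2 pairs had the highest local alignment scores among the 10 pairs of promoters. Capitals mark matches to the motifs named below, on either strand.
Ccl12: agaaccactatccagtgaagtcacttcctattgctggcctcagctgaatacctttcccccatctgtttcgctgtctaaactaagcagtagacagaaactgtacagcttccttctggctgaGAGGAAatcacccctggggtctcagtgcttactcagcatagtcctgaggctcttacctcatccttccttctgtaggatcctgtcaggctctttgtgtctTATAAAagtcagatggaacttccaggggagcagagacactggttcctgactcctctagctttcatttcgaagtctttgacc
Ccl8: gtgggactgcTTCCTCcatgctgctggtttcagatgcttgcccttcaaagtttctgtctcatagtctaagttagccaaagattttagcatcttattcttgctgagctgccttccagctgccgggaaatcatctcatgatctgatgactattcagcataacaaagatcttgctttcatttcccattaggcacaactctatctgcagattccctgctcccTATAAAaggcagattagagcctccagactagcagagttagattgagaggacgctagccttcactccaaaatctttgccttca
Ccl9: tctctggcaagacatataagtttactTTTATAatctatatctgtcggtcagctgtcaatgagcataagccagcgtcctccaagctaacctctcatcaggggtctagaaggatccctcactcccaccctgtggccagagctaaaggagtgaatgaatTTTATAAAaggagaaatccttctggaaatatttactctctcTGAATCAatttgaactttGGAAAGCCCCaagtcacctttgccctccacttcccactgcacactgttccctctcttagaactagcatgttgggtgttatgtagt
Ccl6: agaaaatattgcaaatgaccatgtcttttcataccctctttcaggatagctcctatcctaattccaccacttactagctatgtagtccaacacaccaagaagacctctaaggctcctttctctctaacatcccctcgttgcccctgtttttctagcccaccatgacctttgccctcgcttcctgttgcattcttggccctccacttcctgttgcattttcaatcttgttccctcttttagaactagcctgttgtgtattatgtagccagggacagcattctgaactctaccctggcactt
The best local alignment of Ccl12 with Ccl8 ran over 296 columns with 61.1% identity and a score of 45, and that of Ccl9 with Ccl6 over 74 columns with 79.7% identity and a score of 41 (match 1, mismatch -1, gap opening -2, gap extension -1). The other 8 pairs scored 11 to 15. In the Ccl9 and Ccl6 pair the aligned stretch began 18 bases before the annotated start of Ccl9 and 59 bases before that of Ccl6.

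The promoters were searched on both strands for an NF-kB motif, an interferon response element core (GAAANNGAAA), an AP-1 motif (TGANTCA), a PU.1 core (GAGGAA), a C/EBP motif (TTGCNNAA) and a TATA box (TATAAA). These were held by 4.51%, 3.44%, 7.81%, 28.3%, 10.8% and 13.6% of the 32851 RefSeq promoters of the same length. In Ccl12 and Ccl8 a TATA box began 31 and 32 bases before the start, and each held a PU.1 core, on the plus strand from position -130 in Ccl12 and on the minus strand from -240 in Ccl8. Ccl9 held an NF-kB motif on the minus strand from -35 to -26, an AP-1 motif from -53 to -47, which reads as a match on both strands, and TATA box letters on the minus strand from -224 and on both strands, overlapping, from -94 to -87. Ccl3 held a PU.1 core on the minus strand from -33, and the Ccl6 window held none of the 6 motifs. A match describes letters and not a bound site, and no match says only that the letters are not in that window.

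Receptors of these ligands were counted in the same fits. Of 11 CC chemokine receptor genes tested in skin 7 rose and 0 fell, where 14.1% of all genes tested rose and 5.82% fell. The median log2 fold change of the 11 genes was 1.95. Ccr3, the receptor of Ccl11, rose 20.9-fold, with 1.5 to 19.5 CPM in model skin and 0.199 to 0.744 CPM in control skin. Ccr1, the receptor of Ccl3, Ccl6 and Ccl9, rose 15.3-fold to 36.8 ± 20.2 CPM in model skin, against 2.40 ± 1.69 CPM in control skin (SD, n = 6 each). Ccr2, the receptor of Ccl2, Ccl7 and Ccl12, had 49.0 to 192 CPM in model skin and 9.95 to 30.4 CPM in control skin, and rose 7.51-fold. These 3 receptors had BH-adjusted p from 0.000548 to 0.000952 in edgeR QL. In each all model libraries were above all controls, a separation seen in 7.25% of genes tested in skin. Ccr8, through which mouse Ccl8 acts, was at 0.810 ± 0.279 CPM in model skin and 0.528 ± 0.229 CPM in control skin and did not pass (SD, n = 6 each, edgeR QL, BH-adjusted p = 0.209). Ccr1l1 had no counts in control skin and 0.132 to 0.7 CPM in model skin, and was not tested. In DRG 0 of 6 receptors tested passed (edgeR QL, 0 in DESeq2, smallest unadjusted p 0.0574 for Ccr1, at 1.57 ± 0.605 CPM in model DRG and 1.05 ± 0.39 CPM in control DRG). Over all genes tested in DRG 0.0974% passed in edgeR QL. In the test between tissues 4 of 6 receptors tested had a higher log2 fold change in skin and 0 a lower one. Over all genes tested 10.6% were higher and 6.43% lower. Among the 4 were Ccr1, Ccr2 and Ccrl2, with differences of 3.31, 2.57 and 1.60 on the log2 scale.

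Of 12 other CC chemokines tested in skin 2 rose and 0 fell in edgeR QL (5 at an unadjusted p under 0.05, 3 called in DESeq2). Over all genes tested in skin 14.1% rose and 5.82% fell. The median log2 fold change of the 12 genes was 0.38. Ccl24, a further eosinophil attractant acting on Ccr3, rose 3.78-fold, with 4.32 to 26.3 CPM in model skin and 1.56 to 5.38 CPM in control skin (edgeR QL, BH-adjusted p = 0.00615). Ccl19, a Ccr7 ligand that guides dendritic cells and T cells, rose 4.82-fold (edgeR QL, BH-adjusted p = 0.0154). The Ccr4 ligand Ccl17 did not pass, at 2.71 ± 1.07 CPM in model skin and 1.44 ± 0.422 CPM in control skin (SD, n = 6 each, edgeR QL, BH-adjusted p = 0.0535). Ccl21a and Ccl21b, and Ccl27a and Ccl27b, are near-identical copies among which reads may be split, and their values are uncertain. In DRG 0 of 8 passed (0 in DESeq2), and Ccl22, a Ccr4 ligand, was the only gene of the list with an unadjusted p under 0.05 (0.0257), at 0.240 ± 0.0938 CPM in model DRG and 0.105 ± 0.0637 CPM in control DRG (SD, n = 6 each, edgeR QL, BH-adjusted p = 0.503). Of the 19509 genes tested in DRG 0.0974% passed in edgeR QL, and 1822 had an unadjusted p under 0.05. Atypical receptors, the Ackr genes, bind chemokines without classical signalling, and Pitpnm3, which is not an Ackr gene, was listed with them. Of the 5 genes in that list Ackr3 rose 1.99-fold and Pitpnm3 fell 1.64-fold in model skin (BH-adjusted p = 0.00254 and 0.0364 in edgeR QL). In DRG 0 of 5 passed in either edgeR QL or DESeq2, with 0 at an unadjusted p under 0.05.

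Genes that carry the signal from chemokine receptors to cell movement rose in 13 of 15 cases in skin. Over all genes tested 14.1% rose, and the median log2 fold change of the 15 was 1.82. The leukocyte GTPase gene Rac2 rose 10.1-fold, the Src-family kinase gene Lyn 3.54-fold, and Vav1, an activator of Rac, 6.02-fold. Their BH-adjusted p were 0.000548 to 0.000582 in edgeR QL. In DRG 0 of 14 passed (0 at an unadjusted p under 0.05, 0 in DESeq2). Of the 19509 genes tested in DRG 0.0974% passed in edgeR QL, and 1822 had an unadjusted p under 0.05. Of 14 NF-kB and interferon regulators 8 rose in skin, at a median of 0.52. Irf7, which amplifies interferon responses, was at 34.3 to 258 CPM in model skin and 9.60 to 15 CPM in control skin. Stat2 and Irf9, which relay interferon receptor signals, rose 2.62-fold and 1.76-fold, at BH-adjusted p = 0.000552 and 0.000855 in edgeR QL. In DRG 0 of 14 passed (3 at an unadjusted p under 0.05, 0 in DESeq2), with Stat2 at 62.1 to 70.2 CPM in model DRG and 57.2 to 66.1 CPM in control DRG (edgeR QL, BH-adjusted p = 0.46).

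Cytokines known to induce CC chemokines were low, and 5 of 10 could be tested in skin, where 14.1% of all genes tested rose. Il1b rose 3.21-fold, with 5.78 to 20.7 CPM in model skin and 1.32 to 6.94 CPM in control skin (edgeR QL, BH-adjusted p = 0.0253). Tnf, at 2.82 ± 0.892 CPM in model skin and 1.62 ± 0.516 CPM in control skin, did not pass (SD, n = 6 each, edgeR QL, BH-adjusted p = 0.0597). DESeq2 called 2 of the 5. In DRG 0 of 2 passed (1 at an unadjusted p under 0.05, 0 in DESeq2). Of 8 genes for proteins that cut or hold chemokines 4 rose in skin, among them the macrophage elastase gene Mmp12 6.05-fold and Tnfaip6, whose product TSG-6 binds chemokines, 3.24-fold, at BH-adjusted p = 0.00507 and 0.0052 in edgeR QL. The count was 2 with the replicate number as a block. In DRG 0 of 7 passed in edgeR QL, where 4 had an unadjusted p under 0.05 and DESeq2 called 2, and the heparan sulfate proteoglycan gene Sdc1 had 34.2 to 42.1 CPM in model DRG and 25.0 to 34.3 CPM in control DRG (edgeR QL, BH-adjusted p = 0.0944). Of all 19509 genes tested in DRG, 0.0974% passed in edgeR QL, 1822 had an unadjusted p under 0.05 and DESeq2 called 136. In the test between tissues Tnfaip6 had a higher log2 fold change in skin than in DRG, by 1.87 (edgeR QL, BH-adjusted p = 0.00291). Sdc1, Sdc4 and Dpp4 had a lower log2 fold change in skin than in DRG. Skin minus DRG was -0.84, -0.53 and -2.16 (edgeR QL, BH-adjusted p = 0.00316, 0.00956 and 0.0116). Such a difference can arise in either tissue, and it does not show a change in DRG, where none of these genes passed in edgeR QL.

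The genes whose pattern over the 24 libraries was most like each member were ranked by the mean absolute difference of z-scored log2 CPM, among 16123 genes, and are given as a description, since the libraries share 4 groups. Closest were Ptafr to Ccl2 (0.122), Cd300ld to Ccl7 (0.157), Dhx58 to Ccl12 (0.148) and Tap1 to Ccl8 (0.0846). Ms4a6d was closest to Ccl6 (0.0801) and Mmp19 to Ccl9 (0.0973), with the neighbouring gene Wfdc17 next (0.0997). Lpxn was closest to Ccl3 (0.163), Fcgr1 to Ccl4 (0.131) and Shisa5 to Ccl5 (0.159), with the T cell gene Cd4 next to Ccl5 (0.177). Ccl11 had no near match by this measure: its closest gene, Gbp3, was at 0.285.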

How the data were processed

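Polyadenylated RNA was sequenced in 24 libraries, grouped by title. Per the submitters' processing notes the tools were bcl2fastq 2.20.0, Trimmomatic, HISAT2 2.1.0 and StringTie 2.1.3b, with GRCm38/mm10. Not given in the sources used here are the counting tool, strand setting and filters. The authors deposited raw whole-number counts for each gene. TPM values deposited by the authors gave levels between genes and 2 alternatives, and FPKM values deposited by the authors were not used.

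Each tissue was fitted in edgeR 4.0.16 (R 4.3.3) with filterByExpr, TMM factors, robust QL dispersion and the QL F test, with BH adjustment over all genes tested. The tissue difference was a contrast of 4 group means over genes passing the filter in both tissues. Intervals of 95% come from the QL standard errors. The tests were checked on simulated counts. In skin 39 of 173 DESeq2 calls were false, against 9 of 117 edgeR calls. In DRG 41 of 204 DESeq2 calls were false, against 6 of 158 edgeR calls. Genes called by DESeq2 and not by edgeR are therefore less certain. Of simulated 2-fold changes edgeR recovered 49.3% in skin and 74.6% in DRG, and of 4-fold changes 89.4% and 92.4%. Smaller changes can thus be missed. Alternatives were DESeq2 1.42.0, RLE factors, TMM within each tissue, 2 other filters, non-robust dispersion, limma 3.58.1 on log2 TPM plus 1 or 0.1, all libraries in 1 fit, a replicate block and each library left out. Promoters were aligned with Biopython 1.88. Named were all members, up to 4 genes of each pathway list with the smallest p per tissue, markers from the first 2 of each marker list, and the 3 genes most like each member. Other genes named (Ccr8, Ccr1l1, Ccl21a, Ccl21b and chromosomal neighbours) were chosen after their values were seen. Some genes that the rule names are not reported here. Members and lists were chosen with earlier results of these data known. Floors cover counting error only. None of 60 pairs of libraries within a group agreed within sampling noise (lowest chi-square per gene 9.13).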

Additional observations from a re-analysis of the deposited data

Results flagged for a closer look

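In 40 sets of 6 libraries (10 genes in 4 groups), 3 held a library far from the other 5 for its group. The nominal chance rate is about 1 of 20 sets, which need not hold for skewed CPM values or counts of 0. Ccl5 was at 20.6 CPM in model skin replicate 2, against 2.63 to 6.28 CPM in the other model skin libraries. Ccl2 was at 6.76 CPM in control skin replicate 4, against 2.65 to 4.19 CPM in the other control skin libraries, and control replicate 4 was also the highest control for Ccl4, Ccl6, Ccl7, Ccl9 and Ccl12. Ccl4 was at 0.0773 CPM in model DRG replicate 4 and at 0 in the other model DRG libraries, which is a handful of counts.

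The model effect differed between tissues for 7 genes, as skin minus DRG on the log2 scale: 3.16 for Ccl2, 3.22 for Ccl6, 3.79 for Ccl7, 2.66 for Ccl8, 2.70 for Ccl9, 1.83 for Ccl11 and 4.15 for Ccl12 (edgeR QL, BH-adjusted p from 9.25e-05 to 0.00204). In each of the 7 genes all 6 model skin libraries were above all control skin libraries, as in 7.25% of genes tested in skin. The DRG groups overlapped for these genes, as for nearly all genes tested in DRG. There every model library lay above every control in 0.379% of genes and below every control in 0.149%.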

How the results depend on the processing

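The calls on the CC chemokines kept their direction and side of the threshold in nearly every alternative. In skin 10 passed in 20 of 21 alternatives, and 8 where each gene needed 1 CPM or more in 6 libraries, which removed Ccl3 and Ccl4 from the test. In DRG 0 passed in all 21. With limma on log2(TPM + 1) the skin log2 fold changes were smaller, 2.07 for Ccl3, 2.30 for Ccl4, 2.89 for Ccl5 and 3.36 for Ccl12, against 3.82, 4.05, 3.73 and 3.99 in edgeR, and the tissue difference of Ccl12 was 3.46 against 4.15. In the tissue difference 7 passed in 33 of 34 and 4 with that filter, which removed Ccl7, Ccl8 and Ccl12. The DRG log2 fold change of Ccl7, which was not called, was -0.14 and ranged from -0.33 to 0.024 with a library left out, being above 0 without model DRG replicate 5. Counts over all genes moved more. In skin 3892 genes were called, 6489 with all 24 libraries in 1 fit and 2564 to 6278 with a library left out (6278 without control skin replicate 2, 2586 without control 3 and 2564 without control 5). In DRG 19 genes were called, 136 in DESeq2, 12 with at least 1 CPM, 33 with all libraries in 1 fit and 11 to 36 with a library left out (11 without control DRG replicate 1 or 4, 12 without model DRG replicate 3 and 36 without model DRG replicate 6). In the tissue difference 2942 genes were called (1832 up, 1110 down), 2828 (2174 up, 654 down) with TMM factors within each tissue, and 2229 to 4646 with a library left out (4646 without control skin replicate 2). The cause of these shifts was not tested.

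The labels do not say whether libraries with the same replicate number share an animal or a batch. Their deviations correlated at -0.52 to 0.23 between model and control skin, at -0.50 to 0.0035 between model and control DRG, and at -0.19 to 0.098 between skin and DRG of 1 condition. With the number as a replicate block, 10 chemokines and 2804 genes were called in skin, 0 chemokines and 6 genes in DRG, and 7 chemokines and 2521 genes in the tissue difference. With a block for same-numbered skin and DRG libraries of 1 condition, chosen after seeing the data, 7 chemokines and 2069 genes were called. Depth limits the precision for Ccl3, Ccl4, Ccl5 and Ccl8 in DRG, which lay under 0.4 CPM in every library.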
